A study of Mus musculus with 12 samples.

Results

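The 10 genes described here encode the contractile apparatus that smooth muscle cells and myofibroblasts share: Acta2, Actg2, Tagln, Cnn1, Lmod1, Tpm1, Tpm2, Myh11, Myl9 and Des. They were taken by gene symbol from the deposited read count tables, and all 10 of them were among the 20844 genes listed in both tables. A fibroblast in culture builds contractile bundles from smooth muscle actin and non-muscle myosin, and TGF-beta and stiff substrates are known to raise these genes through the transcription factor SRF and its cofactors of the myocardin family. Differentiated smooth muscle differs from such a myofibroblast in its high level of Myh11, the smooth muscle myosin heavy chain. Desmin is the intermediate filament of muscle and is low in most fibroblasts.

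The RNA came from fibroblasts of mouse embryos (MEFs), primary mesenchymal cells prepared at embryonic day 13.5 to 14.5 and grown in pyruvate-free DMEM with 10% fetal serum. There were 12 libraries in 4 groups of 3, all infected with adenovirus at a multiplicity of 500 and collected on day 4. The Nrf2 D29H group carried the inducible allele LSL-Nrf2D29H on both chromosomes and received Cre adenovirus, which turns on mutant NRF2, the transcription factor of the antioxidant response. The Nrf2 labelled knockout group carried the same allele and received empty adenovirus, and its titles call it knockout. The Keap1 R554Q group carried CA-Keap1R554Q on both chromosomes and received Cre adenovirus, which turns on a mutant form of KEAP1, the adaptor that marks NRF2 for degradation. The Keap1 wild-type group carried the same allele and received empty adenovirus, with which Keap1 functions as wild type. No group combined cells of normal genotype with Cre, so Cre itself and the mutant allele cannot be told apart. Nothing in the labels says that the 3 libraries of a group came from separate embryos or cultures, and p-values then measure only the spread between these samples. In bulk RNA, fewer cells of a type and less RNA per cell cannot be told apart.

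The libraries held 14963004 to 23818477 counted reads, with labelled knockout replicate 3 the shallowest. Mitochondrial genes took 0.725% to 1.77% of reads, with Nrf2 D29H replicate 2 the highest. The NRF2 target Nqo1 had 119 CPM in D29H and 8.82 CPM in the labelled knockout, and 351 CPM in R554Q and 33.2 CPM in Keap1 wild type (CPM are counts scaled to library size with TMM factors over all 12 libraries). Reads of Nfe2l2, the gene of NRF2, were present in the labelled knockout at 42.6 ± 3.42 CPM, against 53.1 ± 3.8 CPM in D29H (SD, n = 3 each, adjusted p = 0.0713 in edgeR). That is near the 42.9 ± 1.22 CPM of Keap1 wild type, so the Nfe2l2 reads by themselves do not show a loss, and the group is called the labelled knockout for that reason. All 10 fibroblast markers were detected in every group, from Col1a1 at 6909 to 10779 CPM per library and Vim at 3134 to 4546 CPM down to Pdgfra at 39.1 to 63.2, Dcn at 14 to 26.6 and Lum at 1.53 to 6.38 CPM. Markers of endothelium, epithelium, skeletal muscle and cardiac muscle summed to at most 23.6, 7.34, 1.31 and 3.42 CPM in any library, and of the endothelial markers Kdr had 13.8 to 22 CPM while Pecam1 and Cdh5 stayed at or below 0.275 CPM.

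Promoter sequences (RefSeq, GRCm38.p6) matched 7 of the 10 genes by symbol. Tagln, Actg2 and Myh11 were not matched. SRF acts on smooth muscle genes through the CArG box, and the stretches of 250 bases before the start are shown for the 4 genes that hold one, or a sequence that differs from one by 1 base. The window of Cnn1, Tpm2 and Des held neither. The start is that of RefSeq and differs from the gene positions given below. Part of the stretches shown for Tpm1, Myl9 and Lmod1 therefore lies inside the gene as positioned there. Capitals mark the CArG boxes, with at most 1 other base allowed.
Acta2, chr19:34255374-34255623, minus strand: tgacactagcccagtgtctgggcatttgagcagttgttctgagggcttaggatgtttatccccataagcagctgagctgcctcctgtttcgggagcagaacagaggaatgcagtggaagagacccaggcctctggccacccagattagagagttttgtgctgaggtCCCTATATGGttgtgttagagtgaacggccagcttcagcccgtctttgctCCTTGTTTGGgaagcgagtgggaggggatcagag
Myl9, chr2:156775214-156775463, plus strand: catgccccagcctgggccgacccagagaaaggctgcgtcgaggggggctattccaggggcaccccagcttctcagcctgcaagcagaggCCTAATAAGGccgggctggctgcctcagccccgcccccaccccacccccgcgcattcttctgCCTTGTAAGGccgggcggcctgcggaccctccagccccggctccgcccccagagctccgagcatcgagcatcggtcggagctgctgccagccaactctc
Tpm1, chr9:67049214-67049463, minus strand: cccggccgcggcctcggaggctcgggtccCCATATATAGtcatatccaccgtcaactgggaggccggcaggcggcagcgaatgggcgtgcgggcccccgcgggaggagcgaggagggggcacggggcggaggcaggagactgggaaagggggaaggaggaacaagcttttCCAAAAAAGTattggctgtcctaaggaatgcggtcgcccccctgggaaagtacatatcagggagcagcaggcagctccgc
Lmod1, chr1:135324563-135324812, plus strand: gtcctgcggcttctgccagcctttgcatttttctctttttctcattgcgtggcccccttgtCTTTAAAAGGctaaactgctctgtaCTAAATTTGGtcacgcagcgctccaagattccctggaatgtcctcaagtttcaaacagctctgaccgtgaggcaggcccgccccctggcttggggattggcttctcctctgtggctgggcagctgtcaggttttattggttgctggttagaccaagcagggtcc
Over the window from 250 bases before the start to 50 bases after it, a CArG box without other bases was found in 1 of the 7 promoters, that of Myl9 (from -161 to -152), and in 1.63% of 32851 promoters of the same length. With at most 1 other base it was found in 4 of the 7, those of Acta2, Myl9, Tpm1 and Lmod1, and in 21.1% of all promoters. Acta2 held CCCTATATGG from -84 to -75 and CCTTGTTTGG from -34 to -25. The MCAT motif of TEAD factors, CATTCC, was searched on both strands and lay in 3 of the 7 promoters (Acta2, Tpm1 and Lmod1) and in 14.7% of all. The core of the antioxidant response element that NRF2 binds, TGACNNNGC, searched on both strands, lay in 1 of the 7, that of Des (from 32 to 40 after the start), and in 12.4% of all. A match describes the letters and not a bound site, and where there is no match the letters are only missing from this window.

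Per length, group means ran from 2.49 FPKM for Myh11 to 5427 FPKM for Tagln. FPKM, as the authors deposited them, scale a gene's reads by its length and the library total. Tagln (transgelin or SM22, an actin-binding protein; ENSMUSG00000032085, chromosome 9, 45929628 to 45936058, minus strand) had the highest group means at 3475 to 5427 FPKM. Acta2 (smooth muscle alpha-actin; ENSMUSG00000035783, chromosome 19, 34241090 to 34255336, minus strand) followed at 2505 to 3945 FPKM. By read count, Acta2 ranked 3 to 9 and Tagln ranked 2 to 7 among all genes of a library, and the 10 genes together took 1.31% to 2.1% of all reads.

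Group means were 824 to 1004 FPKM for Tpm1, 448 to 644 for Myl9, 334 to 423 for Tpm2, 103 to 160 for Actg2, 83.1 to 140 for Cnn1 and 23.2 to 30.5 for Lmod1. Myh11 (2.49 to 8.11 FPKM) and Des (3.17 to 5.04 FPKM) were the lowest, and rested on 291 to 1338 and 197 to 396 reads per library. The cells thus held actin and its partners at high levels per length and the smooth muscle heavy chain and desmin at low ones. Positions are those listed in the tables, named as mm10 in the submitters' processing notes.

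**Figure D1:**
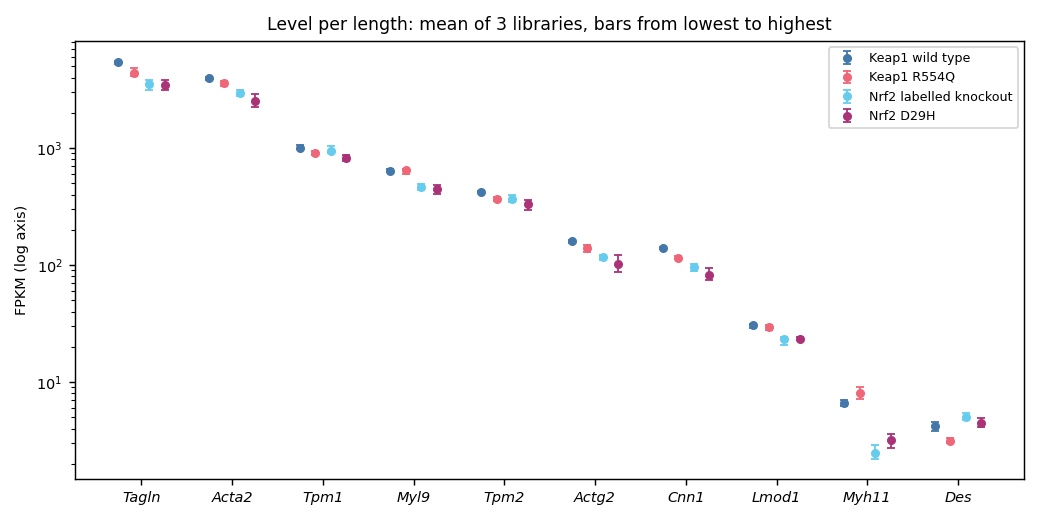
Level of the 10 contractile genes in FPKM (vertical log axis) in each group, as the mean of 3 libraries with bars from the lowest to the highest library. Tagln and Acta2 lie at or above 2238 FPKM in every library, and Myh11 and Des lie below 10 FPKM.

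The first question was how these genes differed with Cre in the Nrf2 cultures. Between D29H and the labelled knockout none of the 10 was called by edgeR, that is, had an adjusted p under 0.05, where 682 of 14370 genes tested did (4.75%). At an unadjusted p under 0.05 there were 2, Cnn1 and Myh11, where 22.9% of all genes were under it. DESeq2 and limma each also called 0. The log2 fold change was below 0 for 9 of the 10, and for 49.9% of all genes tested, with a median of -0.18 beside 0.00 over all genes. Myh11 was the exception, at 0.34 (SE 0.13, adjusted p = 0.11).

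Both smooth muscle actins leaned to lower values, with overlapping libraries. Acta2 had 5077, 4034 and 3850 CPM in D29H replicates 1 to 3 and 4861, 5249 and 5456 CPM in the labelled knockout. D29H replicate 1 was above the lowest labelled knockout library, and the other two D29H libraries were below all of them. The groups differed by -0.27 on the log2 scale (SE 0.14, adjusted p = 0.258). Actg2, the enteric smooth muscle gamma-actin (ENSMUSG00000059430, chromosome 6, 83512905 to 83536265, minus strand), had 161, 124 and 113 CPM against 146, 158 and 160 CPM. The library order in D29H was that of Acta2, and the log2 fold change was -0.23 (SE 0.12, adjusted p = 0.246).

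Among the actin-binding proteins, Cnn1, the calponin that restrains myosin ATPase (ENSMUSG00000001349, chromosome 9, 22099281 to 22109630, plus strand), had 221, 169 and 181 CPM in D29H and 210, 228 and 236 CPM in the labelled knockout. Again D29H replicate 1 lay among the labelled knockout libraries, and the log2 fold change was -0.24 (SE 0.11, adjusted p = 0.201). Tagln had 5941, 4700 and 5369 CPM against 5939, 5815 and 4879 CPM, which overlap throughout (-0.06, SE 0.14, adjusted p = 0.844). Lmod1, leiomodin, which seeds actin filaments in smooth muscle (ENSMUSG00000048096, chromosome 1, 135324807 to 135368065, plus strand), had 90.1, 86.7 and 92.5 CPM against 80.9, 96.1 and 94.4 CPM, and differed by -0.01 on the log2 scale (SE 0.10). The sign for Lmod1 was positive with upper-quartile scaling (0.0092).

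Of the tropomyosins, which wrap the actin filament, Tpm1 (ENSMUSG00000032366, chromosome 9, 67022590 to 67049406, minus strand) was the only gene of the 10 whose D29H libraries all lay below the labelled knockout ones. It had 2480, 2244 and 2186 CPM against 2577, 2612 and 2952 CPM (log2 -0.24, SE 0.13, adjusted p = 0.266). Groups separated in this direction for 12.6% of all genes, and in the other direction for 12.7% and for none of the 10. Tpm2 (ENSMUSG00000028464, chromosome 4, 43514711 to 43523765, minus strand) had 773, 616 and 722 CPM against 737, 777 and 847 CPM, a difference of -0.16 on the log2 scale (SE 0.12, adjusted p = 0.431).

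The myosin chains did not lean the same way. Myh11 (ENSMUSG00000018830, chromosome 16, 14194527 to 14291408, minus strand) had 17.9, 22.8 and 21.3 CPM in D29H and 14.5, 15.5 and 19 CPM in the labelled knockout, with 1 D29H library below the highest of the other group. Myl9, the regulatory light chain (ENSMUSG00000067818, chromosome 2, 156775420 to 156781658, plus strand), had 537, 440 and 493 CPM against 491, 529 and 541 CPM (log2 -0.09, SE 0.12, adjusted p = 0.676). Des (ENSMUSG00000026208, chromosome 1, 75360329 to 75368579, plus strand) had 14.7, 12.8 and 12 CPM against 14.5, 16.6 and 14.1 CPM (-0.20, SE 0.12, adjusted p = 0.337). Only for Myh11 was the fold change upward, and Myh11, Myl9 and Des all had overlapping libraries.

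The count in the Nrf2 comparison moved with single libraries. D29H replicate 1 was the highest of its group for 8 genes and the lowest for Myh11. Without it, 4 of the 10 were called, Acta2 (-0.40), Actg2 (-0.39) and Cnn1 (-0.37) lower and Myh11 (0.44) higher, with adjusted p of 0.0346, 0.0172, 0.0262 and 0.0317. Over all genes the share called then rose from 4.75% to 15%, and it fell to 0.646% and 0.563% without D29H replicate 2 and 3. Without labelled knockout replicate 3, Myh11 alone was called (0.47, adjusted p = 0.0252). The summed fibroblast markers were lower in D29H (18100 to 18836 CPM) than in the labelled knockout (20421 to 21842 CPM), without overlap. Col1a1, Col1a2 and Vim made up most of that sum. Pdgfra went the other way without overlap, with 48.5 to 54.6 against 39.1 to 42.8 CPM. S100a4 had the higher mean in D29H (1325 against 1098 CPM), and Pdgfrb was nearly level (208 and 205 CPM). The part of these markers in the values was not tested.

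**Figure D2:**
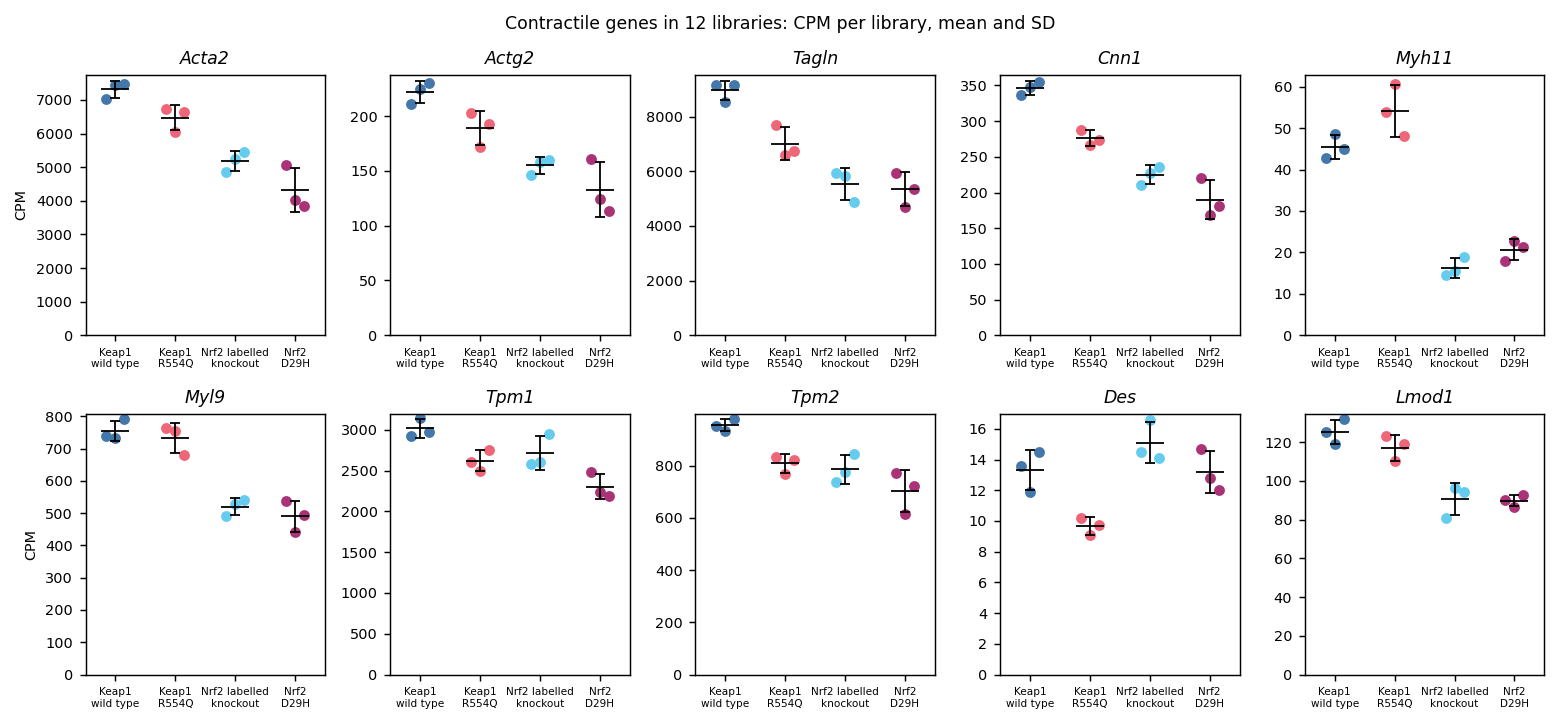
CPM of each contractile gene in the 12 libraries (points), with the group mean and SD as black bars. The vertical axes start at 0. D29H replicate 1 is the leftmost point of its group and sits highest there for 8 genes, and Myh11 sits lower in both Nrf2 groups than in both Keap1 groups.

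The second question was how these genes differed with Cre in the Keap1 cultures. Tagln, Cnn1 and Des fell with R554Q, by 21.5%, 19.9% and 27% in the fitted value, and none of the 10 rose. Falls were called for 2.4% of all 14128 genes tested and rises for 3.77%. The log2 fold change was below 0 for 9 of the 10 and for 50.1% of all genes, with a median of -0.21. At an unadjusted p under 0.05 there were 7, where 24.2% of all genes were under it.

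Tagln had 7692, 6581 and 6728 CPM in R554Q and 9171, 8553 and 9154 CPM in wild type. All 3 R554Q libraries were below all wild-type libraries, a difference of -0.35 on the log2 scale (SE 0.10, adjusted p = 0.0394 by edgeR). Cnn1 had 288, 266 and 273 CPM in R554Q and 336, 348 and 355 CPM in wild type, groups that were also apart (-0.32, SE 0.08, adjusted p = 0.0214). Des had 10.2, 9.07 and 9.74 CPM in R554Q and 13.6, 11.9 and 14.5 CPM in wild type. Desmin was the least abundant of the 3, and its libraries were apart too (-0.45, SE 0.12, adjusted p = 0.0326).

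For 4 further genes all R554Q libraries lay below the wild-type ones, without passing the adjusted threshold. Acta2 had 6730, 6054 and 6640 CPM against 7033, 7442 and 7470 CPM (-0.17, SE 0.09, adjusted p = 0.271). Actg2 had 203, 172 and 193 CPM against 211, 225 and 230 CPM (-0.23, SE 0.08, adjusted p = 0.103). For both actins the highest R554Q library, replicate 1, came close to the lowest wild-type one.

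The tropomyosins were the other pair. Tpm1 had 2601, 2501 and 2756 CPM against 2931, 3147 and 2977 CPM (-0.20, SE 0.09, adjusted p = 0.171), and Tpm2 had 833, 769 and 824 CPM against 954, 935 and 981 CPM (-0.24, SE 0.08, adjusted p = 0.0864). In all, 7 of the 10 had R554Q libraries wholly below the wild-type ones, which held for 13.9% of all genes, and 0 of the 10 had them wholly above, which held for 12.9%.

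The remaining genes had overlapping libraries. Myh11 had 53.8, 60.6 and 48.2 CPM in R554Q and 42.9, 48.6 and 44.9 CPM in wild type. Only R554Q replicate 3 lay among the wild-type libraries, and the log2 fold change was 0.26 (SE 0.09, adjusted p = 0.0994), the single one above 0. Myl9 had 763, 755 and 679 CPM against 740, 733 and 790 CPM (-0.04, SE 0.08, adjusted p = 0.826), and Lmod1 had 123, 110 and 119 CPM against 125, 119 and 132 CPM (-0.09, SE 0.08, adjusted p = 0.502).

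**Figure D3:**
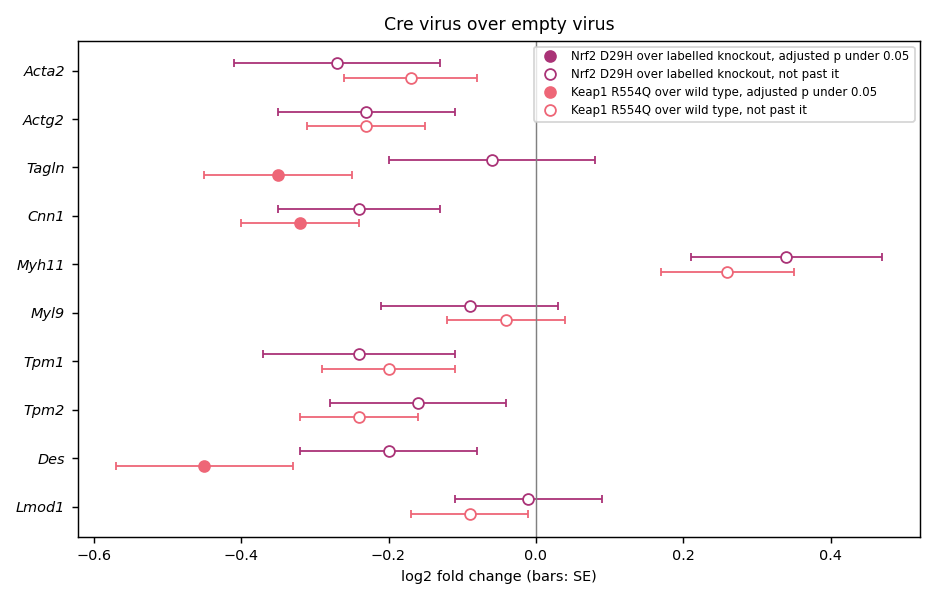
Log2 fold change of each contractile gene with Cre virus over empty virus (horizontal axis, bars are the SE) in the Nrf2 and the Keap1 comparison. Filled points passed an adjusted p of 0.05, which only Tagln, Cnn1 and Des with R554Q did. Myh11 is the single gene right of 0 in both comparisons.

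The 3 calls did not hold throughout. Cnn1 and Des were not called with the replicate block (adjusted p = 0.0569 and 0.0593), Tagln was not called by limma (0.0883), and Tagln and Cnn1 were not called with all 12 libraries in one fit (0.0774 and 0.0542). None of the 10 was called without R554Q replicate 1, R554Q replicate 2, wild-type replicate 1 or wild-type replicate 3, and Des alone was called without wild-type replicate 2. Over all genes the share called fell from 6.17% to 1.66%, 2.87%, 2.73%, 2.98% and 1.67% in these fits. Without R554Q replicate 3, 7 were called, 6 of them lower and Myh11 higher (0.34, adjusted p = 0.00445), while the share of all genes called rose to 20%. Over these fits the log2 fold change ran from -0.42 to -0.31 for Tagln, from -0.35 to -0.30 for Cnn1 and from -0.53 to -0.39 for Des, below 0 each time. In the authors' deposited table, 5 of the 10 had an adjusted p under 0.05 in the Keap1 comparison, Tagln, Cnn1, Tpm1, Tpm2 and Des, all of them lower. Of the 10812 genes given one there, 10.2% had, in either direction. In the authors' deposited table for the Nrf2 comparison 0 of the 10 had, the smallest being 0.0853, and 6.28% of 12147 genes had.

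Levels of other cell markers in the Keap1 groups are given without a test. The pericyte and smooth muscle markers summed to 312 to 323 CPM in R554Q and 324 to 362 CPM in wild type, and Mcam in that list had 134 to 146 CPM against 163 to 168 CPM. Notch3, from the same list, lay the other way, with 30.4 to 33.5 CPM in R554Q and 17.4 to 20 CPM in wild type, and in the Nrf2 groups with 31.2 to 36.5 CPM in D29H and 23.1 to 26.5 CPM in the labelled knockout. The 4 macrophage markers listed in both tables summed to 55.1 to 66.7 CPM in R554Q and 79 to 90 CPM in wild type. Most of that gap was Lyz2 (means of 47.9 and 69.6 CPM), while Csf1r had 7.38 and 7.3 CPM and Cd68 4.98 and 4.39 CPM. None of the markers of these lists was at 0 throughout either Keap1 group, and their part in the result was not tested.

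**Figure D4:**
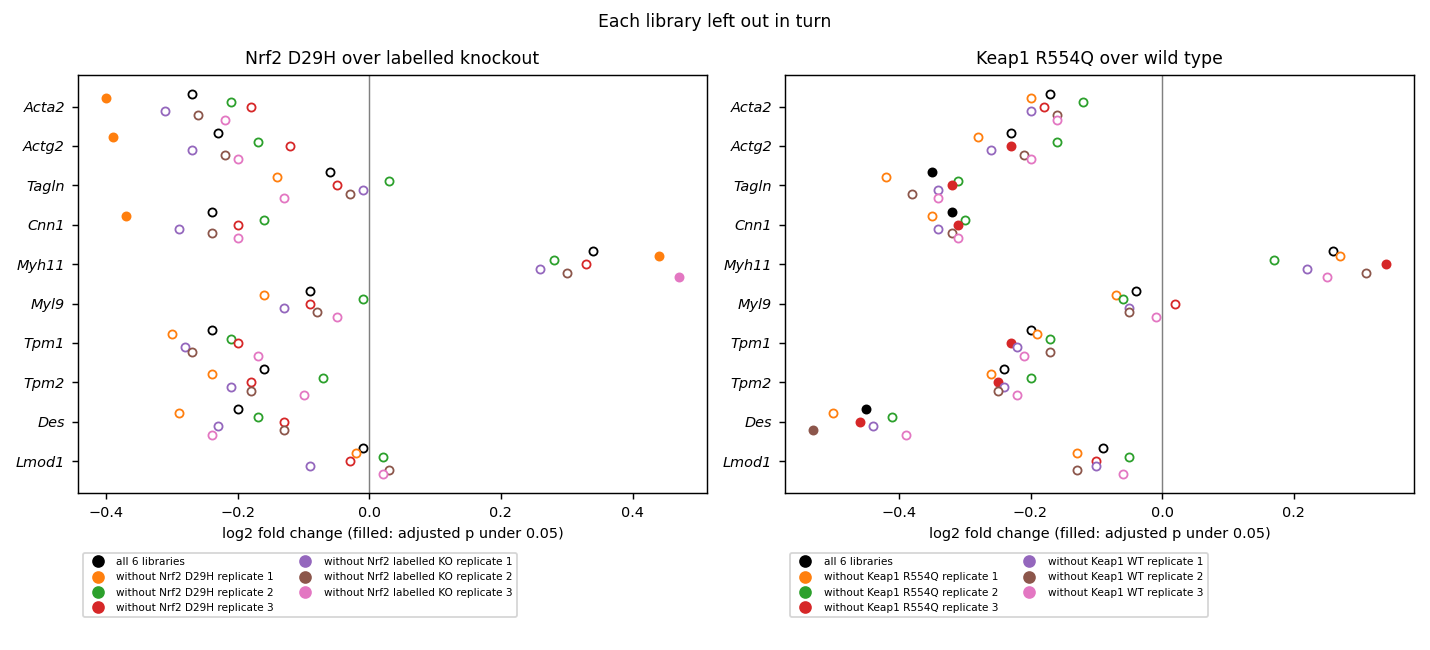
Log2 fold change of each contractile gene (horizontal axis) with all 6 libraries of a comparison in black and with each library left out in colour. Filled points passed an adjusted p of 0.05. In the Nrf2 comparison filled points appear without D29H replicate 1 and, for Myh11, without labelled knockout replicate 3, and in the Keap1 comparison most filled points are black or belong to the fit without R554Q replicate 3.

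Whether the fold changes with D29H and R554Q differed was tested directly over the 12 libraries. The R554Q one was subtracted from the D29H one on the log2 scale. They start from unlike groups, the labelled knockout and Keap1 wild type, which had Nqo1 at 8.82 and 33.2 CPM. A difference was called for 0 of the 10 genes and for 4 of 14794 genes tested (0.027%). None of the 10 had an unadjusted p under 0.05, and DESeq2 and limma called 0 as well. The difference nearest to a call was that of Tagln, 0.30 (SE 0.16, adjusted p = 0.496), followed on size by Des at 0.26 (SE 0.17, adjusted p = 0.566). The test therefore separated neither gene's response to D29H from its response to R554Q, although only R554Q gave a call.

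Levels also differed between the Nrf2 and the Keap1 cultures. Between the empty virus groups, 8 of the 10 were lower in the Nrf2 labelled knockout than in Keap1 wild type, where 10.1% of all genes were, and 0 were higher. The same 8 had libraries wholly below, against 19.1% of all genes, and none had them wholly above, against 17.9%. The alleles, the cultures and the deposited tables vary together here and cannot be told apart, whereas each comparison of Cre with empty virus above stayed within 1 table.

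Myh11 differed most, at 14.5 to 19 CPM against 42.9 to 48.6 CPM, which is -1.49 on the log2 scale (SE 0.12, adjusted p = 3.8e-09). The other genes called differed by -0.69 (SE 0.11) for Tagln, -0.62 (SE 0.10) for Cnn1, -0.54 (SE 0.09) for Myl9, -0.52 (SE 0.11) for Actg2, -0.50 (SE 0.11) for Acta2, -0.47 (SE 0.09) for Lmod1 and -0.28 (SE 0.10) for Tpm2. Tpm2 had an adjusted p of 0.0446 and was called in 9 of 20 alternatives, and it lost the call with 8 of the 12 libraries left out singly, those of both empty virus groups among them except labelled knockout replicate 3. The other 7 were called in all 20. Tpm1 (-0.15, SE 0.10, adjusted p = 0.302) and Des (0.18, SE 0.12, adjusted p = 0.295) were not called.

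Between the Cre groups, 7 of the 10 were lower in D29H than in R554Q, where 13.4% of all genes were, and Des was higher, where 13.1% were. Myh11 was lower by -1.39 (SE 0.11, adjusted p = 7.0e-09) on the log2 scale. Acta2 and Myl9 each had -0.58, Cnn1 -0.53, Actg2 -0.51, Tagln -0.39 and Lmod1 -0.38, and the largest adjusted p of these was 0.0141, for Tagln, whose call was lost without D29H replicate 2 or R554Q replicate 1. Des had 12 to 14.7 CPM in D29H and 9.07 to 10.2 CPM in R554Q (0.45, SE 0.12, adjusted p = 0.00809). Libraries were wholly below for 8 of the 10, the 7 and Tpm1, and for 19% of all genes, and wholly above for Des and for 18.3% of all genes.

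**Figure D5:**
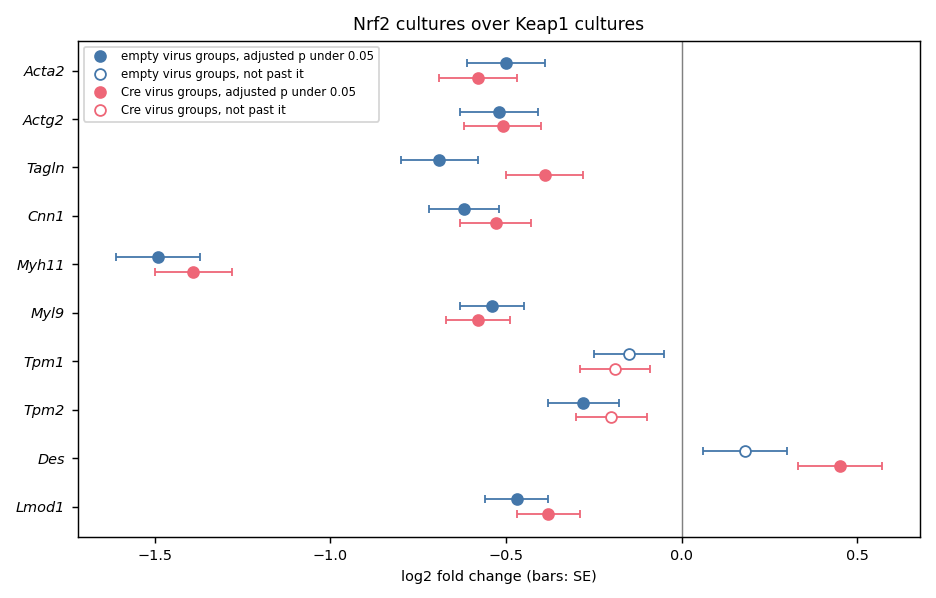
Log2 fold change of each contractile gene in the Nrf2 cultures over the Keap1 cultures (horizontal axis, bars are the SE), between the empty virus groups and between the Cre virus groups. Filled points passed an adjusted p of 0.05. Myh11 lies near -1.49 and -1.39, and Des is the single gene right of 0.

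Other markers differed between the cultures too. The 6 pericyte and smooth muscle markers summed to 272 to 337 CPM in the Nrf2 libraries and 312 to 362 CPM in the Keap1 libraries, which overlap. Within the list, Rgs5 had 2.1 to 3.47 CPM in the Nrf2 libraries and 7.81 to 8.95 CPM in the Keap1 libraries, and Mcam had 88.6 to 107 against 134 to 168 CPM. Cspg4 had the higher means in the Nrf2 groups. They were 161 and 189 CPM in D29H and the labelled knockout, and 135 and 148 CPM in R554Q and wild type. Within each virus, the means of Notch3, Kcnj8 and Abcc9 were also higher in the Nrf2 group. In D29H and R554Q they were 33.9 and 31.8, 1.11 and 0.743, and 0.452 and 0.243 CPM. In the labelled knockout and wild type they were 24.4 and 18.3, 1.32 and 1.13, and 0.528 and 0.351 CPM. The macrophage markers summed to 94.3 to 133 CPM in the Nrf2 libraries and 55.1 to 90 CPM in the Keap1 libraries. The epithelial markers summed to 2.18 to 4.38 CPM against 5.23 to 7.34 CPM. Of the fibroblast markers, Col1a1 (9052 to 10779 against 6909 to 8518 CPM), Col1a2, Col3a1 (830 to 1112 against 463 to 546 CPM), Pdgfrb and Lum were higher in the Nrf2 libraries without overlap. Thy1 (means of 469 and 505 CPM against 544 and 570 CPM) and Dcn (16.3 and 19.4 against 20.4 and 23.8 CPM) had lower means there, and the sums of the whole list were 18100 to 21842 and 15929 to 18681 CPM and overlapped. Their part in the differences between the cultures was not tested.

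Over the 4 groups, 7 of the 10 genes had the same order of mean CPM, with Keap1 wild type highest, then R554Q, then the labelled knockout, and D29H lowest. They were Acta2, Actg2, Tagln, Cnn1, Myl9, Tpm2 and Lmod1. In FPKM, which carry no TMM factor, 5 kept that order, since Myl9 had 644 FPKM in R554Q and 642 in wild type, and Lmod1 23.5 in D29H and 23.2 in the labelled knockout. For Acta2 the means were 7315 ± 245, 6475 ± 367, 5189 ± 302 and 4320 ± 662 CPM (SD, n = 3), and of the neighbours only R554Q and the labelled knockout were told apart (adjusted p = 0.0385). For Tagln (8960 ± 352, 7001 ± 604, 5544 ± 580 and 5337 ± 622 CPM) and Cnn1 (346 ± 9.71, 276 ± 11, 225 ± 13.3 and 190 ± 27.3 CPM) every neighbour but the last pair was told apart. Their step from wild type to R554Q was tested on 6 libraries. It was not called with all 12 in one edgeR fit (adjusted p = 0.0774 and 0.0542). For each gene, 1 of 6 fits with a library left out called it. For Myl9 and Lmod1 the step between R554Q and the labelled knockout was the only one called, with ratios of 1.41 and 1.29, and for Actg2 and Tpm2 no neighbours were.

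The other 3 genes had orders of their own. Myh11 was highest in R554Q (54.2 ± 6.25 CPM), then wild type (45.5 ± 2.87), D29H (20.6 ± 2.52) and the labelled knockout (16.3 ± 2.38), and only the middle step, of 2.2 times, was told apart. Its highest group mean was 3.32 times its lowest, against 1.31 to 1.82 times for the rest. Des was lowest in R554Q, and that last step was the only one called for it, while Tpm1 had no neighbours that were called, although its D29H libraries lay wholly below those of R554Q (adjusted p = 0.166).

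Comparisons across both culture and virus complete the order and share libraries with those above. In D29H, 9 of the 10 were lower than in Keap1 wild type, all but Des, where 16% of all genes were lower. In R554Q, 6 were higher than in the labelled knockout, where 13.1% of all genes were, and 1, Des, was lower (-0.64, SE 0.12, adjusted p = 2.9e-04), where 12% were. Without labelled knockout replicate 2 or R554Q replicate 1 that comparison called 4 in place of 7, and 19.1% and 18.7% of all genes in place of 25.1%. The step between R554Q and the labelled knockout was called in 11 of 20 alternatives for Acta2 (5 of the 12 fits with a library left out, and neither limma nor the replicate block), 15 of 20 for Tagln and 16 of 20 for Cnn1. The difference between these groups was called in all 20 for Myh11, Myl9, Des and Lmod1.

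Levels of the actins moved together library by library. The ratio of Acta2 to Actg2 in FPKM was 24.5 ± 0.941 in D29H, 25.1 ± 0.402 in the labelled knockout, 25.6 ± 0.717 in R554Q and 24.6 ± 0.325 in Keap1 wild type (SD, n = 3). Over all 12 libraries it ran from 23.6 to 26.3, while Actg2 itself ran from 113 to 230 CPM. No window of 50 bases of the Actg2 transcript recurs in another gene, and 0.352% of those of Acta2 do, in Actg1 and actin pseudogenes. The ratio of Tpm1 to Tpm2 in FPKM ran from 2.28 to 2.74. By contrast, the ratio of Myl9 to Myh11 in FPKM was 142 ± 32 and 189 ± 19 in the Nrf2 groups and 79.8 ± 5.77 and 97.8 ± 7.97 in R554Q and Keap1 wild type.

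Likeness to Acta2 was described by Pearson's r of log2 CPM over the 12 libraries, which fall into 4 groups and share their scaling. Of 10336 genes compared, the 5 protein-coding genes most like Acta2 outside the 10 were Atp6v0d1 (0.987), a subunit of the proton pump of lysosomes, Bpnt1 (0.979), Capzb (0.975), the beta subunit of actin capping protein, Timp2 (0.974), an inhibitor of matrix metalloproteinases, and Qpct (0.974). Atp6v0d1 had 99.6, 114, 139 and 147 CPM in D29H, the labelled knockout, R554Q and wild type. Among the 10, r with Acta2 was 0.992 for Actg2 and 0.980 for Cnn1, and it was 0.746 for Myh11 and -0.240 for Des. Of the deviations from the group means alone, r with Acta2 was 0.984 for Actg2, 0.922 for Cnn1, 0.801 for Tpm1 and 0.683 for Tpm2. It was 0.59 for Des, 0.559 for Myl9, 0.374 for Lmod1, 0.319 for Tagln and -0.336 for Myh11.

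The wider contractile pathway was read from lists drawn from general knowledge. Of 38 partners of actin and myosin, none was called lower with either allele. Ppp1r12b, a myosin phosphatase subunit, rose with D29H from 23.7 ± 0.843 to 32.2 ± 4.88 CPM (log2 0.44, SE 0.12, adjusted p = 0.0295), and none rose with R554Q. The list's median was -0.13 with D29H and -0.09 with R554Q, against medians of 0.00 over all genes. Ppp1r12b was called in 11 of 15 alternatives, and not without D29H replicate 2, D29H replicate 3 or labelled knockout replicate 2 (adjusted p up to 0.207).

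Of 7 early targets of TEAD and MRTF, Ctgf, a matricellular protein of fibrotic tissue, fell with R554Q from 859 ± 13.4 to 658 ± 19.9 CPM (-0.38, SE 0.08, adjusted p = 0.00916, called in 12 of 15, and not without wild-type replicate 1 or 2, where the adjusted p was at most 0.0575). With D29H, Ctgf differed by -0.40 (SE 0.13, adjusted p = 0.0801). Of 16 genes of TGF-beta signalling, none was called with D29H and Smad3, which carries the signal to the nucleus, rose with R554Q from 72.4 ± 0.709 to 86.5 ± 2.58 CPM (0.26, SE 0.08, adjusted p = 0.0467, called in 6 of 15, with R554Q replicate 3 the only library it could be called without). Of 22 striated muscle genes, 10 and 8 passed the filter on low counts in the Nrf2 and Keap1 comparisons, and none was called.

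Between the empty virus groups, 12 of the 38 partners were lower in the labelled knockout than in Keap1 wild type and 0 were higher, with a list median of -0.18. Of all genes 10.1% were lower, and their median was -0.01. The largest of these, chosen after their values were seen, were Itga8, an integrin of smooth muscle and mesenchyme (-0.86, SE 0.13, adjusted p = 4.9e-05), Synpo2, an actin-bundling protein of muscle (-0.55, SE 0.12, adjusted p = 0.00133), and Myh10, a non-muscle myosin heavy chain (-0.49, SE 0.09, adjusted p = 5.7e-04). Between the Cre groups 14 of the 38 were lower and 0 were higher, with a median of -0.21, where 13.4% of all genes were lower and their median was 0.01. Of the Myh11 transcript, 0.4% of windows of 50 bases recur in Myh10 and Myh9, and how such reads were counted is not given in the sources used here.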

How the data were processed

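The 12 libraries were grouped by their sample titles. The authors deposited raw read counts and FPKM per gene for the 6 Nrf2 and the 6 Keap1 libraries in separate tables, per the file headers, with their own log2 fold changes, p-values and a normalised mean signal for each group, none of which entered a test here. STAR, DESeq2 and mm10 are named in the submitters' processing notes. The counting tool, the use of strand and tool versions are not given in the sources used here. Opposite-strand genes that overlap Tagln (Pcsk7) and Des had 0.504% and 0.0933% as many reads.

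Here, counts were tested in R 4.3.3 with edgeR 4.0.16 (filterByExpr, TMM scaling, quasi-likelihood test), with a Benjamini-Hochberg adjusted p under 0.05 over all genes as a call. Each allele was tested on its own 6 libraries, and the difference between alleles and all comparisons across tables on all 12. All 10 contractile genes passed the filter. A standard error is the log2 fold change over the root of its F statistic. Percent called is the share of all genes tested. The separation of libraries was counted over 14794 genes. The tests were tried on simulated counts. Replicate pairs of a group differed by more than sampling noise, so no library was counted as a duplicate. Alternatives were scaling by RLE or upper quartiles, leaving low counts unfiltered, requiring a mean count of 50, DESeq2 1.42.0, limma-trend (3.58.1), a replicate block, offsets for GC content and gene length, all 12 libraries in one fit and leaving out each library.

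The 10 genes and the lists were chosen with earlier results of these data known. Named list genes are up to 3 called in each direction per list, with the largest fold change, in the comparison of either allele. Their alternatives were run after the data were seen. Results on some list genes are not reported here.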

Additional observations from a re-analysis of the deposited data

How the results depend on the processing

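In the D29H comparison, 0 of the 10 genes were called under each alternative that kept all libraries, where 3.91% to 5.99% of all genes were. With a library left out 0 to 4 were called, where 0.563% to 15% of all genes were. In the R554Q comparison 3 were called. RLE or upper-quartile scaling, no filter and a mean count of at least 50 also gave 3. DESeq2 and the offsets for GC content and gene length each gave 4. Of all genes, 3.62% to 7.89% were called in these alternatives. limma called 2, the replicate block 1 (Tagln), all 12 libraries in one fit 1 (Des), and fits with a library left out 0 to 7, where 5.99%, 3.43%, 4.15% and 1.66% to 20% of all genes were called. R554Q over the labelled knockout gave 4 to 8 calls with a library left out, against 7. Of all genes 18.7% to 26.7% were called there, against 25.1%. The labels do not say whether the numbers in the titles pair the libraries. Deviations of same-numbered libraries from their group means correlated at -0.174 to 0.0324, and those of differently numbered ones at -0.173 to 0.189. Deviations within a group of 3 sum to 0, so these values cannot decide whether the numbers pair the libraries. The codes in the sample descriptions number the Nrf2 libraries otherwise, and by them D29H replicates 2 and 3 share numbers with labelled knockout replicates 1 and 2 (r of 0.0991 and 0.0167), which was not fitted as a block. With title numbers, the replicate block kept 0 calls for D29H. The cause of these shifts was not tested.

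Of the signs, 32 values turned, none past the threshold and none larger than 0.18. Lmod1 in the D29H comparison became 0.0092 with upper-quartile scaling and 0.0064 with a mean count of at least 50, and Des in D29H over Keap1 wild type 0.02 with each. For the difference between the alleles, Actg2 became -0.0053 with RLE scaling and with DESeq2, -0.0054 with limma, -0.0047 with the replicate block and -0.06 with the offsets. With a library left out, that difference ran from -0.18 to 0.11 for Actg2, -0.06 to 0.16 for Cnn1, -0.14 to 0.02 for Myl9, -0.12 to 0.03 for Tpm1 and -0.02 to 0.16 for Tpm2. The D29H values then ran from -0.14 to 0.03 for Tagln and -0.09 to 0.03 for Lmod1, and the R554Q value of Myl9 from -0.07 to 0.02. D29H over Keap1 wild type ran from -0.1 to 0.06 for Des, and R554Q over the labelled knockout from -0.0074 to 0.1 for Tpm2 and -0.1 to 0.01 for Tpm1. A lone pair left in a group is assumed to vary like the rest. Depth limits Des most, at 197 reads in its lowest library.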

Other observations

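Genes next to the contractile set differed between the cultures and not, by the test, with Cre. They are described after their values were seen. Acta1, skeletal alpha-actin, a close relative of Acta2, had 99.3 ± 11.6 CPM in D29H, 120 ± 5.19 in the labelled knockout, 298 ± 19.8 in R554Q and 333 ± 17.2 in Keap1 wild type (SD, n = 3). Its log2 difference between the empty virus groups was -1.47 (SE 0.09, adjusted p = 1.4e-10 in edgeR), about that of Myh11, while D29H gave -0.27 (SE 0.10, adjusted p = 0.12) and R554Q -0.16 (SE 0.08, adjusted p = 0.254). Of its windows of 50 bases, 2.22% recur in other genes, Actb and Actg1 among them, and none in Acta2.

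Tgfb2, a TGF-beta ligand, had 22 ± 1.47 CPM in the labelled knockout and 33.4 ± 0.503 in Keap1 wild type (-0.61, SE 0.10, adjusted p = 6.7e-05), and Ankrd1, a target of TEAD factors, 30.9 ± 2.28 against 48.5 ± 4.56 CPM (-0.65, SE 0.10, adjusted p = 4.3e-05). Tgfbr3, a co-receptor, went the other way, with 29.8 ± 2.23 against 18.1 ± 1.68 CPM (0.73, SE 0.10, adjusted p = 2.3e-05). Allele, culture and table cannot be told apart in these differences.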
